A study of Mus musculus with 28 samples.

Results

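The 10 genes described here belong to the T helper 1 (Th1) program of CD4+ T cells: Tbx21, Eomes and Hlx, which encode transcription factors, the cytokine gene Ifng, the chemokine receptor gene Cxcr3, the IL-12 pathway genes Il12rb1, Il12rb2 and Stat4, and the IL-18 receptor genes Il18r1 and Il18rap. They were taken by gene symbol from the deposited expression table, and 10 of its 25124 genes are members. RNA was sequenced from T cells of the small intestinal lamina propria, the connective tissue under the gut lining, sorted as live cells positive for CD45, CD90.2, TCRb and CD4. All 28 libraries came from T-bet-ZsGreen mice, in which a green fluorescent protein reports T-bet, so every control carried the reporter as well. The 4 groups were specific-pathogen-free (SPF) mice given an isotype control antibody (n = 6, 3 female and 3 male), SPF mice given the CD3 antibody aCD3 (n = 6, 3 female and 3 male), germ-free (GF) mice given the isotype control (n = 10, 5 female and 5 male) and GF mice given aCD3 (n = 6, 1 female and 5 male). Germ-free mice have no gut microbes, and CD3 is the signalling part of the T cell receptor. Age, dose, time after injection and the construction of the reporter are not given in the sources used here, and whether reporter reads can fall on Tbx21 was not tested.

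Naive CD4+ T cells become Th1 cells when the T cell receptor is engaged in the presence of IL-12 and interferon gamma. T-bet, the product of Tbx21, then turns on the interferon gamma gene, the receptor CXCR3 and the IL-12 receptor chain encoded by Il12rb2, and IL-12 acts through STAT4 to sustain the program. IL-18 acts with IL-12 to raise interferon gamma without further receptor engagement, and in the gut these cells stand beside interleukin-17 producing and regulatory T cells.

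Values are in TPM, which express a gene as a share of its library. The authors' TPM divides reads by the whole genomic span of a gene with its introns, so levels are compared between groups for 1 gene and not between genes. Between 3382764 and 8930304 read equivalents fell in genes per library. A read equivalent is 2 of the smallest steps between values. If 1 step were 1 read, every such count would be 2 times as large. The TPM level that stands for 3 reads would be smaller by the same factor. A TPM is a share, and histone genes took 5.51% ± 1.09 (SD) of summed TPM in SPF isotype and 25.7% ± 1.34 after aCD3, and 6.87% ± 1.85 in GF isotype and 15.6% ± 9.81 after aCD3, which lowers the share left to other genes. The median tested gene shifted by -0.35 log2 after aCD3 in SPF mice and by -0.15 in GF mice. Most fold changes of members are therefore given also after scaling by the median of ratios, which sets each library's typical gene level (scaled values below). The 7 CD4 T cell markers were at or above 1 TPM in median in every group and summed to between 1515 and 2052 TPM per library. The 6 GF aCD3 libraries differed widely from each other, so the members' fold changes that rest on them were also computed with each library left out, which was not done for ratios. All p-values measure the spread between these libraries, since the labels do not say that each came from a separate mouse.

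After aCD3 in SPF mice, Ifng and Hlx were higher and the other 8 members were lower in TPM. Among the well-expressed members Cxcr3, Il18r1 and Il12rb1 moved most, being 3.72-fold, 2.94-fold and 2.42-fold lower by group means (n = 6 and 6), while Ifng was 1.38-fold higher. Eomes met the filter on low values through the group where it is high (4 of its 7 libraries at 1 TPM were SPF isotype), so it is not counted among the passing members here. The other 9 members passed limma's test at an adjusted p of 0.05 among 12182 tested genes, 7 as lower and 2 as higher, where 50.7% of those genes passed as lower and 14.2% as higher. After scaling, 4 members passed as lower (Cxcr3, Il18r1, Il12rb1 and Stat4) against 29.8% of all genes, and Ifng and Hlx passed as higher against 30.2%. Tbx21, Il12rb2 and Il18rap did not pass after scaling. The median of the 9 shifted by -0.90 log2 in TPM against -0.35 for all tested genes, and by -0.49 against -0.01 after scaling. In bulk RNA, fewer cells of a type and less RNA per cell cannot be told apart.

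**Figure D1:**
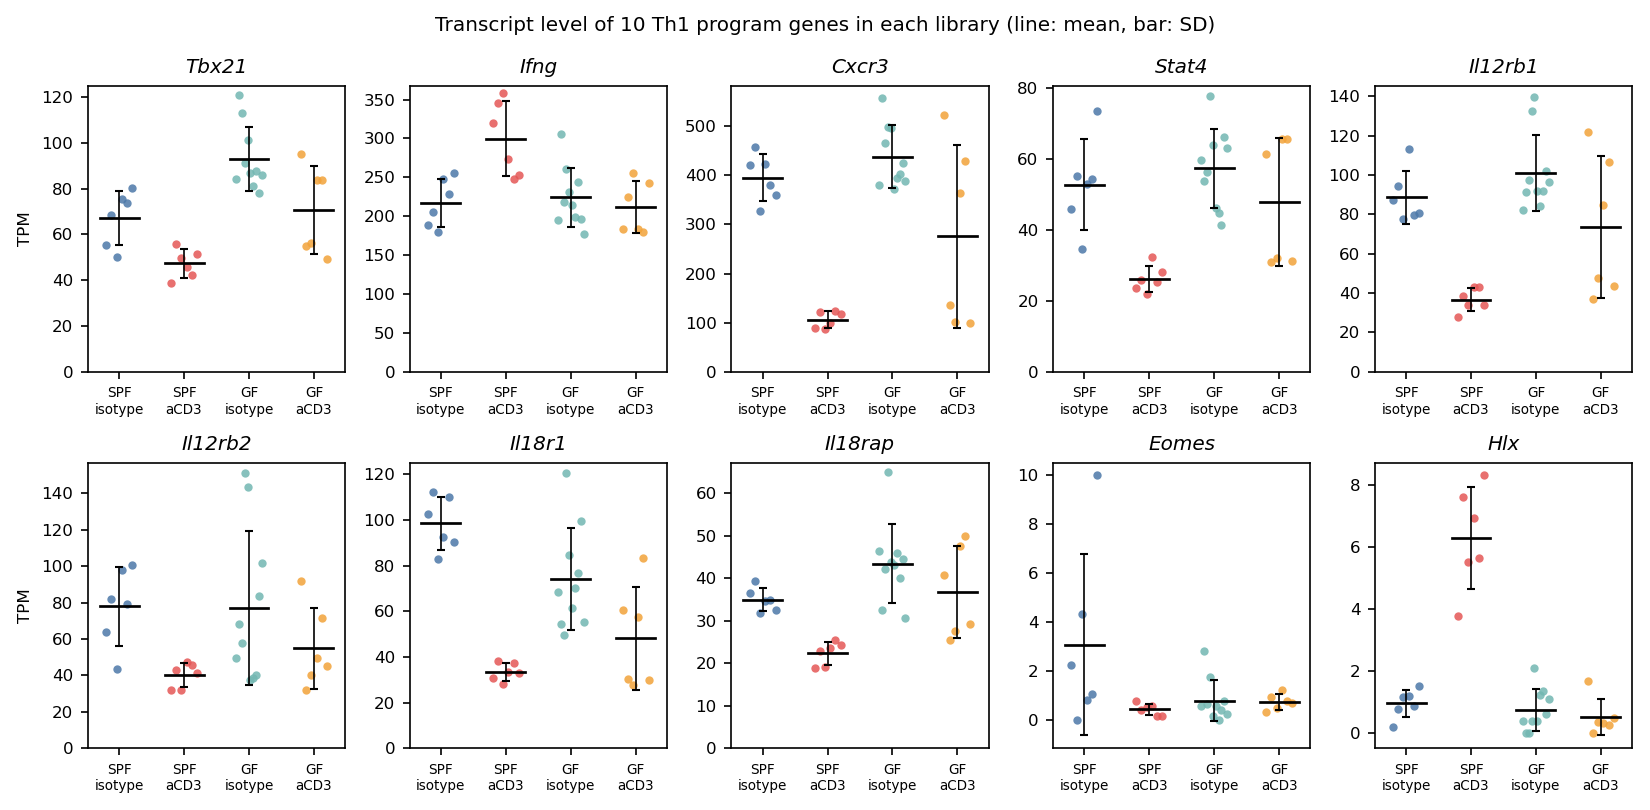
Level of each of the 10 genes in TPM on the vertical axis (linear, with its own scale for each gene) in the 4 groups, with 1 point per library, a line at the group mean and a bar of 1 SD. SPF aCD3 libraries lie below all SPF isotype libraries for Cxcr3, Stat4, Il12rb1, Il18r1 and Il18rap and above them for Hlx, and GF aCD3 libraries spread widely for Cxcr3 and Il12rb1.

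Among the transcription factors, Tbx21 (chromosome 11, 97098007 to 97115331, minus strand, mm10) had 50.0, 71.1 and 80.0 TPM as lowest, median and highest value in SPF isotype and 39.0, 47.7 and 55.8 TPM in SPF aCD3. The groups overlapped: 4 of 6 aCD3 libraries lay below every isotype library. The log2 fold change was -0.48 ± 0.15 (SE, adjusted p = 0.00679) in TPM, and -0.08 ± 0.10 (adjusted p = 0.544) after scaling, with an interval from -0.29 to 0.14. Tbx21 was thus lower as a share of the library and had a scaled interval on both sides of 0.

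Hlx (chromosome 1, 184727145 to 184732493, minus strand), a homeobox factor that acts with T-bet in Th1 cells, was the member with the largest rise. It had 0.216, 1.023 and 1.52 TPM as lowest, median and highest in SPF isotype and 3.78, 6.30 and 8.31 TPM in SPF aCD3, with no overlap between the groups. The log2 fold change was 1.90 ± 0.26 (adjusted p = 3.95e-06), or 2.24 ± 0.24 after scaling (adjusted p = 3.88e-07). Of the 9 members besides Eomes, Hlx was the 1 with every aCD3 library above every isotype library, a separation that 8.57% of tested genes show. The counts behind it are small: 17 to 39.5 read equivalents per SPF aCD3 library and 0 to 8.5 in each of the other 22 libraries, where the level of 3 read equivalents was 0.460 to 1.21 TPM.

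Eomes (chromosome 9, 118478189 to 118486132, plus strand), a T-box factor related to T-bet and prominent in natural killer and cytotoxic T cells, reached 1 TPM in 7 of 28 libraries. In SPF isotype it ran from 0 to 9.96 TPM with a median of 1.64, and in SPF aCD3 from 0.149 to 0.749 TPM with a median of 0.464. The log2 fold change was -1.08 ± 0.38 (adjusted p = 0.0163), or -0.97 ± 0.38 after scaling (adjusted p = 0.0309). Since its libraries at 1 TPM were mostly SPF isotype, this call gives no support to a change. It also rested on replicate M3 of SPF isotype, which held 73 of the 134.5 read equivalents of that group: without it the value was -0.68 (adjusted p = 0.0658). A pseudocount of 0.1 and a voom fit of the read equivalents also ended the call, at adjusted p = 0.0716 and 0.163.

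Ifng (chromosome 10, 118441046 to 118445894, plus strand), which encodes interferon gamma, the defining Th1 cytokine, had 180.3, 216.9 and 255.0 TPM as lowest, median and highest in SPF isotype and 247.4, 296.5 and 358.4 TPM in SPF aCD3. The groups overlapped slightly, with 4 of 6 aCD3 libraries above every isotype library. The log2 fold change was 0.46 ± 0.13 (adjusted p = 0.00351), and 0.87 ± 0.16 after scaling (adjusted p = 5.48e-05).

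Cxcr3 (chromosome X, 101731535 to 101734147, minus strand), a receptor for interferon-induced chemokines that directs Th1 cells into inflamed tissue, had the largest fall among members above 10 TPM. Its lowest, median and highest values were 327.9, 401.2 and 458.0 TPM in SPF isotype and 86.5, 108.6 and 123.8 TPM in SPF aCD3. Every aCD3 library lay below every isotype library, as for 5 of the 9 members besides Eomes and for 33.4% of tested genes. The log2 fold change in TPM was -1.89 ± 0.29 (adjusted p = 1.07e-05), a rank of 12012 of 12182 from the top. It was -1.48 ± 0.23 after scaling (adjusted p = 1.16e-05).

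The IL-12 receptor has 2 chains, and STAT4 carries its signal. Il12rb1 (chromosome 8, 70808449 to 70821423, plus strand), the chain shared with the IL-23 receptor, had 77.5, 84.0 and 113.1 TPM as lowest, median and highest in SPF isotype and 27.99, 36.1 and 43.1 TPM in SPF aCD3, without overlap. Its log2 fold change was -1.26 ± 0.22 (adjusted p = 3.26e-05), or -0.85 ± 0.17 after scaling (adjusted p = 0.000168). Il12rb2 (chromosome 6, 67292018 to 67376188, minus strand), the chain that binds STAT4 and marks IL-12 responsive cells, ran from 43.6 to 100.8 TPM with a median of 80.4 in SPF isotype and from 32.1 to 47.6 TPM with a median of 42.3 in SPF aCD3. The Il12rb2 groups overlapped, with 4 of 6 aCD3 libraries below every isotype library, and its log2 fold change of -0.90 ± 0.32 (adjusted p = 0.0159) became -0.49 ± 0.29 after scaling (adjusted p = 0.145). Stat4 (chromosome 1, 52008240 to 52107189, plus strand) had 34.6, 53.6 and 73.5 TPM as lowest, median and highest in SPF isotype and 21.8, 25.6 and 32.4 TPM in SPF aCD3, without overlap. Its log2 fold change was -0.96 ± 0.20 (adjusted p = 0.000234), or -0.56 ± 0.15 after scaling (adjusted p = 0.00209).

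The genes of both IL-18 receptor chains are neighbours on chromosome 1, 14507 bases apart with 0 other genes of the table between them, yet they differed in the size of their change. Il18r1 (40466006 to 40500854, plus strand), which binds IL-18, had 83.0, 97.6 and 112.2 TPM as lowest, median and highest in SPF isotype and 27.97, 33.1 and 38.4 TPM in SPF aCD3. Its log2 fold change was -1.53 ± 0.23 (adjusted p = 8.42e-06), or -1.12 ± 0.19 after scaling (adjusted p = 2.07e-05). Il18rap (40515362 to 40551705, plus strand), the accessory chain needed for signalling, had 31.8, 34.7 and 39.3 TPM in SPF isotype and 18.9, 23.3 and 25.5 TPM in SPF aCD3. Both genes separated the groups without overlap in TPM, but the log2 fold change of Il18rap was -0.63 ± 0.16 (adjusted p = 0.0013) and -0.23 ± 0.13 after scaling (adjusted p = 0.124).

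**Figure D2:**
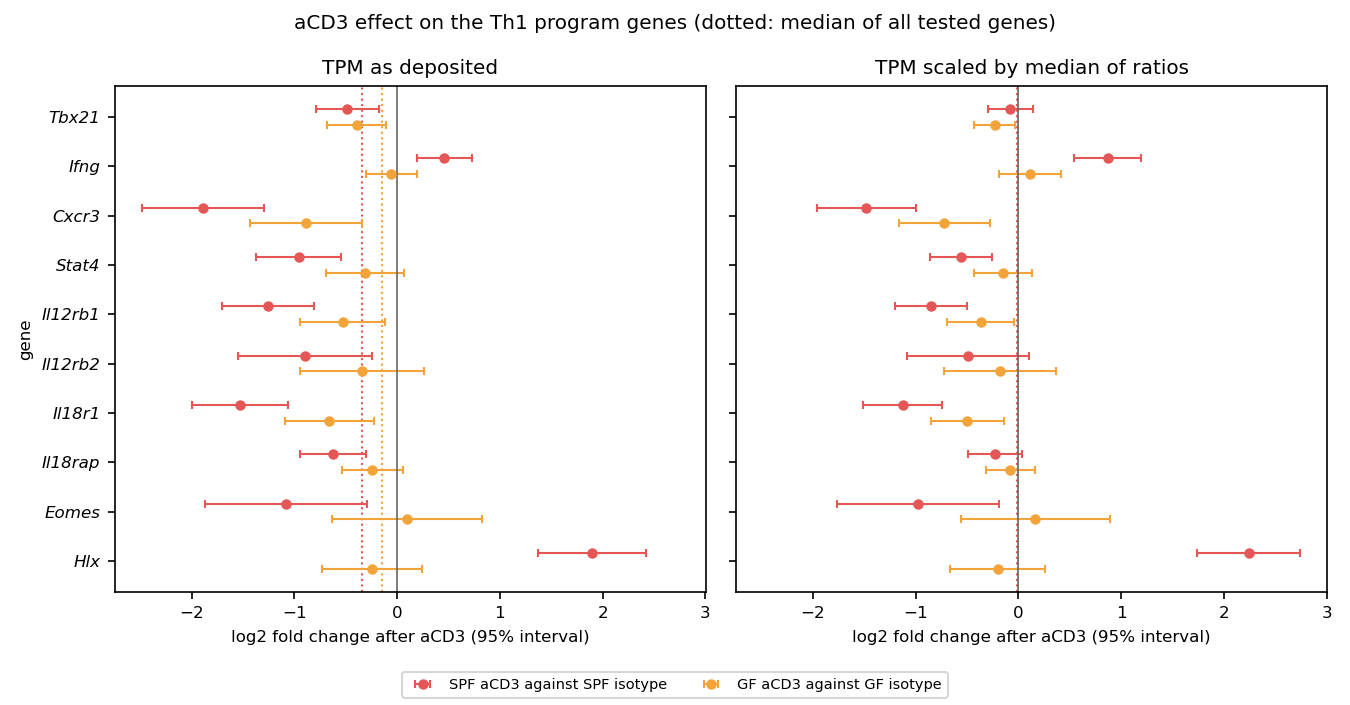
Log2 fold change after aCD3 on the horizontal axis for each gene, with 95% intervals from limma, in SPF mice (red) and GF mice (orange), in TPM as deposited (left) and after median of ratios scaling (right). The dotted lines mark the median tested gene, at -0.35 (SPF) and -0.15 (GF) in TPM. Ifng and Hlx lie to the right of 0 in SPF mice in both panels.

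Sequence before the start site was compared for members that moved in opposite directions after aCD3 in SPF mice. RefSeq promoters (GRCm38.p6, the assembly of mm10) were found for 9 of the 10 members, and Il12rb1 had no entry. Each of the 9 had a promoter at the start site of the deposited table, which is the one described, and the 2 further starts of Il18r1 and the 1 of Stat4 held 0 matches. The 250 bases before each start were searched on both strands for 3 motifs, and matches to different motifs did not overlap in any member. The T-box core TCACAC, bound by T-bet and Eomes, was in 2 of 9 members (Il12rb2 from base -80 and Cxcr3 from base -234) and in 12.2% of 27025 promoters. The GAS element TTCNNNGAA, bound by STAT factors, was in 3 of 9 (Ifng from base -249, Il12rb2 from base -123, and Il18r1 from bases -219 and -152) and in 7.18% of promoters. The AP-1 element TGANTCA was in 0 of 9 members and 6.90% of promoters, which says only that these letters are not in this window. A match is no evidence of binding. The stretches of Ifng, which rose, and of Il12rb2 and Cxcr3, which fell in TPM, are printed 5′ to 3′ on the strand of the gene, with GAS and T-box matches in capitals. They lie at chr10:118440796-118441045 (plus strand), chr6:67376189-67376438 (minus strand) and chrX:101734270-101734397 (minus strand), the last shortened to the 128 bases before the first annotated exon.
Ifng: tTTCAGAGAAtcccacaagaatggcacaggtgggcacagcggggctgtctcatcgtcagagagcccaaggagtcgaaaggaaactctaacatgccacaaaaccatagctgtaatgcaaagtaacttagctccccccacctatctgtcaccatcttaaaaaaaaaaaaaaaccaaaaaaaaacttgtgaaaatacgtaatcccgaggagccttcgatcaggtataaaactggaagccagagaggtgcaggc
Il12rb2: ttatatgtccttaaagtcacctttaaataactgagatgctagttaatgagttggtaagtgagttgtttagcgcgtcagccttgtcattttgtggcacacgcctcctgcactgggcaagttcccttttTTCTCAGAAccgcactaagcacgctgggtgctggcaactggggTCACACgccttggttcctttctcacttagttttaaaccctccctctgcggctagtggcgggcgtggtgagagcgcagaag
Cxcr3: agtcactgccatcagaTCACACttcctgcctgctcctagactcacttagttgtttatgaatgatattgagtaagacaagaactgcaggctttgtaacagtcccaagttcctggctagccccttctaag

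Because ratios between members within a library do not depend on scaling, 4 of them were compared over libraries with exact two-sided permutation tests (4 pairs in 4 group comparisons, 16 tests, adjusted over all 16; the pairs were chosen after the values had been seen). Ifng per Tbx21 had 3.00, 3.24 and 3.61 as lowest, median and highest ratio in SPF isotype and 4.90, 6.08 and 8.19 in SPF aCD3. All 6 aCD3 libraries lay above all isotype libraries, with a log2 difference of 0.95 (exact permutation p = 0.00216, the smallest that 6 against 6 can give, adjusted p = 0.00693). Cxcr3 per Tbx21 was 1.41 log2 lower after aCD3 in SPF mice and Il18r1 per Il18rap 0.91 lower by the same test, each with 6 of 6 libraries below and the same p-values. How often other gene pairs separate as fully was not computed, here or in the other group comparisons. The adjustment over 16 tests does not cover the choice of the pairs. Il12rb1 per Il12rb2 differed by -0.37 (exact permutation p = 0.0476, adjusted p = 0.0762) in SPF mice, which does not pass, so no unequal fall of these chains was shown.

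**Figure D3:**
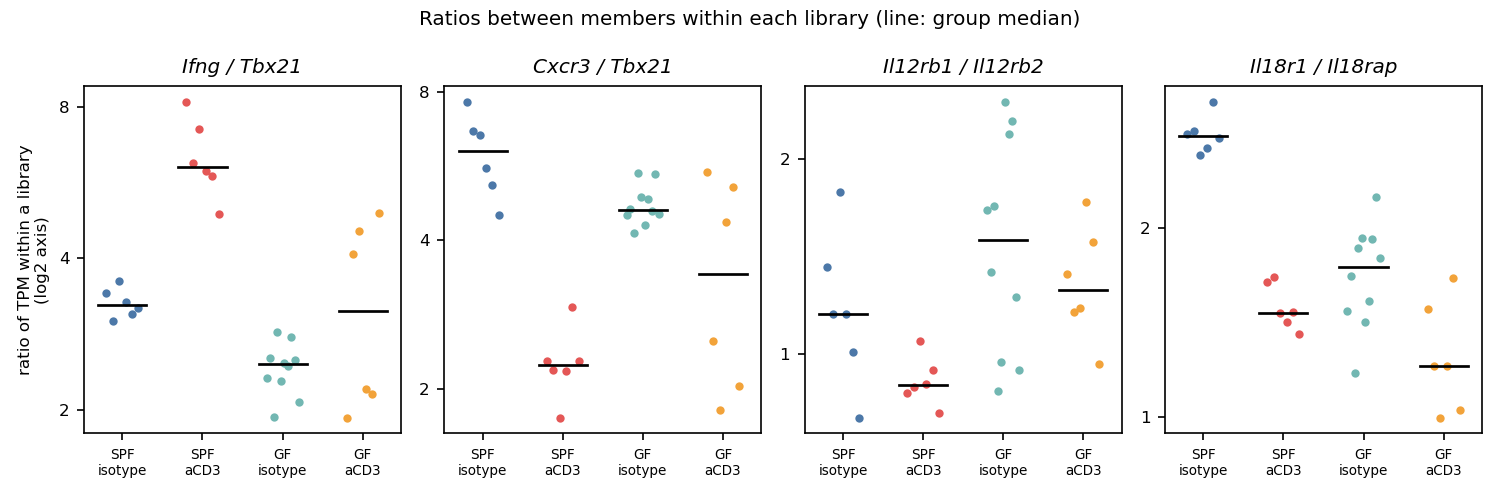
Ratio of TPM between 2 members within each library (vertical axis, log2 scale) in the 4 groups, with 1 point per library and a line at the group median. The ratio of Ifng to Tbx21 was 4.90 to 8.19 in SPF aCD3 and 1.94 to 2.86 in GF isotype, and GF aCD3 libraries lay between 1.93 and 4.91.

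In GF mice given aCD3, the values split widely between libraries, and 1 member passed the test. Cxcr3 was 1.59-fold lower by group means, with a log2 fold change of -0.89 ± 0.27 (adjusted p = 0.0488), or -0.72 ± 0.22 after scaling (adjusted p = 0.0428), where 4.61% of tested genes passed as lower in TPM and 4.02% after scaling. Its lowest, median and highest values were 372.4, 413.9 and 558.4 TPM in GF isotype and 100.2, 250.2 and 523.2 TPM in GF aCD3, and 4 of 6 aCD3 libraries lay below every isotype library. The call was lost when any 1 of the replicates M1, M2 and M5 of GF aCD3 was left out (adjusted p = 0.162, 0.177 and 0.181) and without any 1 of the 10 GF isotype libraries (adjusted p from 0.0545 to 0.0828). Within sample numbers 25 to 33 and 48 to 54 of the column names, taken as separate sets with fewer libraries each, the value was -1.18 (adjusted p = 0.319) and -0.55 (adjusted p = 0.734). Over all GF libraries with the sets as a covariate it was -0.93 and passed (adjusted p = 0.0285).

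The libraries of GF aCD3 stood apart from each other, so each is given. Cxcr3 had 523.2 TPM in F1, 136.8 in M1, 101.6 in M2, 363.6 in M3, 429.5 in M4 and 100.2 in M5. Of the 8 members above 1 TPM in every library (all but Eomes and Hlx), M1 had 7 below the lowest GF isotype library, M2 and M5 had 6 each, M3 had 1 and F1 and M4 had 0. Over all tested genes, 47.5% in M1, 47.4% in M2 and 52.8% in M5 lay below the lowest GF isotype library, against 9.0% in F1, 4.2% in M3 and 6.3% in M4, so the members' counts go with a wide shift of these libraries. Ifng is the member that was not below in any of the 6: it had 183.6 TPM in F1, 224.1 in M1, 255.2 in M2, 183.6 in M3, 180.1 in M4 and 242.8 in M5. Lag3, an inhibitory receptor gene that rises on activated T cells, had 498, 452 and 527 TPM in M1, M2 and M5 and 9.6, 17.03 and 12.3 TPM in F1, M3 and M4, beside 505 to 825 TPM in SPF aCD3 and 5.4 to 18.5 TPM in GF isotype. M1, M2 and M3 share sample numbers 31 to 33 and F1, M4 and M5 share 52 to 54, so high and low Lag3 values occur in each set. What lies behind the split was not tested. The Lag3 values of the libraries labelled F1, M3 and M4 lie within the GF isotype range, whether these libraries match their treatment label was not settled, and every GF aCD3 mean and each value of the interaction includes them.

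**Figure D4:**
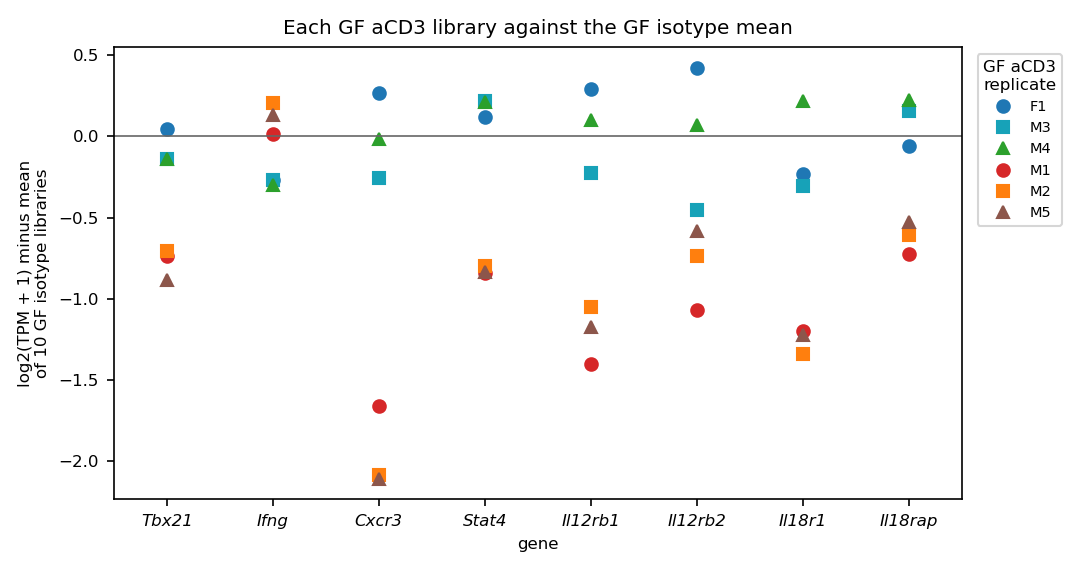
Difference of log2(TPM + 1) from the mean of the 10 GF isotype libraries (vertical axis) for each GF aCD3 library and the 8 members above 1 TPM in all libraries (horizontal axis). Replicates M1, M2 and M5 lie lowest for Tbx21, Cxcr3, Stat4, Il12rb1, Il12rb2, Il18r1 and Il18rap and highest for Ifng.

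No other member passed in GF mice in this fit. Tbx21 had 78.1, 87.2 and 120.7 TPM as lowest, median and highest in GF isotype and 49.4, 69.9 and 95.1 TPM in GF aCD3, a log2 difference of -0.39 ± 0.14 (adjusted p = 0.0628), or -0.23 ± 0.10 after scaling (adjusted p = 0.105). Il18r1 differed by -0.66 ± 0.21 (adjusted p = 0.052) and Il12rb1 by -0.53 ± 0.20 (adjusted p = 0.0739), or by -0.50 and -0.37 after scaling (adjusted p = 0.0596 and 0.112). Leaving out any 1 of F1, M3 and M4 of GF aCD3 brought Tbx21, Il12rb1 and Il18r1 past the threshold, and so did a fit with no sex term. With the sets of sample numbers as a covariate Il18r1 (-0.72, adjusted p = 0.0222) and Il12rb1 (-0.59, adjusted p = 0.0336) passed. Ifng differed by -0.06 ± 0.12 (adjusted p = 0.745), with an interval from -0.30 to 0.19, and by 0.11 ± 0.15 after scaling, a change of sign. Stat4, Il12rb2 and Il18rap had values of -0.31, -0.34 and -0.24 in TPM, with intervals that included 0, and of -0.15, -0.18 and -0.08 after scaling. Hlx had -0.25 ± 0.24 (adjusted p = 0.449), or -0.20 after scaling, with 0 to 1.68 TPM in GF aCD3 and 0 to 2.09 TPM in GF isotype, often at or below the level of 3 read equivalents. Il18r1 per Il18rap was lower by 0.43 log2 in GF aCD3 (exact permutation p = 0.0122, adjusted p = 0.0218), with 2 of 6 libraries below every isotype library. Ifng per Tbx21 differed by 0.35 (exact permutation p = 0.106, adjusted p = 0.130). For this ratio 3 of 6 libraries (M1, M2 and M5, at 4.09, 4.54 and 4.91) lay above every isotype library and 1 (F1) lay below.

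The effect of aCD3 itself was compared between GF and SPF mice as an interaction term. Hlx was the member that passed in TPM: its aCD3 effect was 2.15 log2 smaller in GF mice (value -2.15 ± 0.35, adjusted p = 0.0026), where 1.04% of tested genes passed as lower. After scaling Hlx (-2.44 ± 0.33, adjusted p = 0.000406) and Ifng (-0.76 ± 0.22, adjusted p = 0.0312) passed, against 6.03% of tested genes. In TPM the Ifng difference was -0.52 ± 0.18 (adjusted p = 0.0699), and it passed on leaving out M1, M2 or M5 of GF aCD3 (adjusted p = 0.0472, 0.0304 and 0.0282). The differences of Cxcr3, Il18r1 and Il12rb1 were 1.00 ± 0.39, 0.87 ± 0.31 and 0.72 ± 0.30 (adjusted p = 0.094, 0.0758 and 0.103), or 0.76, 0.63 and 0.49 after scaling (adjusted p = 0.101, 0.0929 and 0.148), so a smaller fall in GF mice was not shown for them. Without M5 of GF aCD3, 6 members passed, Cxcr3, Stat4, Il12rb1 and Il18r1 among them. For Tbx21 the difference was 0.09 ± 0.20 (adjusted p = 0.782), with an interval from -0.33 to 0.51, and -0.15 after scaling.

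Under the isotype control, Tbx21 was the member that differed between GF and SPF mice, being 1.39-fold higher in GF by group means. In 9 of 10 GF isotype libraries it exceeded every SPF isotype library, and the share of tested genes that do so is not given here. The log2 difference was 0.47 ± 0.13 (adjusted p = 0.0327), where 6.42% of tested genes passed as higher, and 0.31 ± 0.09 after scaling (adjusted p = 0.0974). The call was also lost without F2 or F3 of GF isotype (adjusted p = 0.0586 and 0.0602) and without F1, F2 or F3 of SPF isotype (adjusted p = 0.0913, 0.0515 and 0.128). GF and SPF columns carry separate sample numbers, 25 to 54 against 1 to 12, so colonisation and any difference between those sets cannot be told apart, here and in every GF against SPF value.

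Ifng did not follow Tbx21 between these groups. It had 177.4, 216.6 and 305.9 TPM as lowest, median and highest in GF isotype, a log2 difference of 0.04 ± 0.12 from SPF isotype (adjusted p = 0.852), with an interval from -0.20 to 0.28, and of -0.12 after scaling. The ratio of Ifng to Tbx21 was 1.94, 2.46 and 2.86 as lowest, median and highest in GF isotype, below every SPF isotype library in 10 of 10 (log2 difference -0.44, exact permutation p = 0.00025, adjusted p = 0.002). Il18r1 per Il18rap was also below every SPF isotype library in 10 of 10, at 1.17 to 2.24 against 2.61 to 3.17 (log2 difference -0.75, exact permutation p = 0.00025, adjusted p = 0.002). Neither chain passed alone, with -0.45 ± 0.20 for Il18r1 (adjusted p = 0.164) and 0.28 ± 0.14 for Il18rap (adjusted p = 0.208), or -0.61 and 0.12 after scaling (adjusted p = 0.0642 and 0.727). With the replicate block Il18r1 passed (-0.64, adjusted p = 0.0216). Cxcr3 per Tbx21 was lower by 0.33 log2 (exact permutation p = 0.0102, adjusted p = 0.0205), with 2 of 10 libraries below every SPF isotype library. Cxcr3, Stat4, Il12rb1 and Il12rb2 differed by 0.14, 0.13, 0.18 and -0.14 log2, and Hlx by -0.21, none past the threshold. After scaling these were -0.02, -0.03, 0.01, -0.30 and -0.26, so Cxcr3 and Stat4 changed sign. Eomes differed by -0.86, or -0.93 after scaling, and by -1.20 to -0.45 without 1 library. Since it met the filter through SPF isotype, its test, which passed only without F2 of SPF isotype (adjusted p = 0.0236), gives no support to a difference.

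Between the groups given aCD3, 5 members were higher in GF than in SPF mice and 2 were lower in TPM, where 48.9% of tested genes passed as higher and 4.46% as lower. Cxcr3 (1.15 ± 0.30, adjusted p = 0.00309), Il12rb1 (0.90 ± 0.22, adjusted p = 0.00236), Stat4 (0.77 ± 0.21, adjusted p = 0.00393), Il18rap (0.67 ± 0.16, adjusted p = 0.00211) and Tbx21 (0.56 ± 0.15, adjusted p = 0.00467) were the higher ones. After scaling, Cxcr3 (0.74) and Il12rb1 (0.50) passed against 16.1% of tested genes, and Tbx21, Stat4 and Il18rap did not. Ifng (-0.48 ± 0.13, adjusted p = 0.00526) and Hlx (-2.36 ± 0.26, adjusted p = 4.39e-06) were lower, also after scaling (-0.88 and -2.71), against 16.7% of tested genes. For Hlx all 6 GF libraries lay below all SPF libraries, and for Ifng 5 of 6 did. The share of tested genes with such a separation between these groups is not given here. The values of GF aCD3 split here too: F1, M3 and M4 had 363.6 to 523.2 TPM of Cxcr3, against 100.2 to 136.8 TPM in M1, M2 and M5 and 86.5 to 123.8 TPM in SPF aCD3. For Stat4, F1, M3 and M4 had 61.3, 65.7 and 65.5 TPM and M1, M2 and M5 had 31.1, 31.99 and 31.2 TPM, within the 21.8 to 32.4 TPM of SPF aCD3. Leaving out each library in turn gave 7 to 8 passing members and 0.85 to 1.35 for Cxcr3. Ifng per Tbx21 was lower by 1.04 log2 (exact permutation p = 0.00433, adjusted p = 0.00989) with 5 of 6 GF libraries below every SPF library, and Il12rb1 per Il12rb2 exceeded every SPF library in 5 of 6, by 0.50 log2 in the mean, at the same p-values. This comparison shares its libraries with both aCD3 comparisons, so the 3 sets of values are not independent.

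Other genes of the same pathways are given by list, in SPF mice against 50.7% of tested genes passing as lower and 14.2% as higher in TPM, and 29.8% and 30.2% after scaling. After aCD3 in SPF mice, 8 of 12 IL-12 and IL-18 relay genes passed as lower and 2 as higher in TPM, and 4 and 3 after scaling. Myd88, the adaptor of the IL-18 receptor, rose by 0.72 ± 0.09 (adjusted p = 2.29e-06), while Jak2, a kinase of the IL-12 receptor, fell by 1.28 on the log2 scale (adjusted p = 6.86e-06). Of 8 genes of the interferon gamma receptor and its relay, 6 were lower and 0 higher in TPM, and 3 and 1 after scaling. Of 14 tested among 15 other Th1 regulators, 6 were lower (Runx3 among them) and 6 higher (Irf4, Batf, Prdm1, Zeb2, Nfil3 and Notch1), with 4 and 7 after scaling. Of 6 lineage factors, 3 were lower and 1 higher, and 3 and 2 after scaling. Among the lower ones, the nuclear receptor gene Rora went from 72.02 ± 14.1 to 19.1 ± 3.41 TPM (SD, n = 6 each, log2 fold change -1.86).

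Of 16 other Th1 effector genes, 6 passed as higher and 6 as lower in TPM in SPF mice, against 14.2% and 50.7% of tested genes, and 7 and 4 after scaling, against 30.2% and 29.8%. Havcr2, the inhibitory receptor TIM-3, went from 0.891 ± 0.310 to 30.7 ± 3.25 TPM (SD, n = 6 each, log2 fold change 4.08, adjusted p = 1.72e-06). The chemokine genes Ccl3 and Ccl4 went from 34.2 ± 12.5 to 397 ± 66.5 TPM and from 50.3 ± 23.6 to 448 ± 68.3 TPM (log2 fold changes 3.56 and 3.27). In contrast the growth factor gene Il2 went from 16.8 ± 3.45 to 0.341 ± 0.302 TPM and the chemokine gene Xcl1 from 83.1 ± 16.3 to 7.29 ± 1.97 TPM (log2 fold changes -3.74 and -3.36). Ifng thus shared its direction with Ccl3, Ccl4 and Havcr2 and not with Il2 and Xcl1. Of 10 genes for IL-12, IL-18 and interferon ligands and decoys, 3 were expressed enough to be tested. Il12a, Il12b, Il23a, Il27, Il18, Cxcl9 and Cxcl11 were not, and Il18bp and Cxcl10 were lower.

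In GF mice, the lists held 3 passing genes: Havcr2 was higher by 1.64 (adjusted p = 0.0481), and Irf1 and Tnf were lower, at -0.58 (adjusted p = 0.0481) and -0.50 (adjusted p = 0.0499). Over all tested genes 2.46% passed as higher and 4.61% as lower. These 3 calls were lost, as were those of all other genes, without any 1 of the 10 GF isotype libraries or of M1, M2 and M5 of GF aCD3, and with a pseudocount of 0.1, no filter or the replicate block. After scaling Havcr2 (1.76, adjusted p = 0.0411) and Irf1 (-0.41, adjusted p = 0.0399) passed and Tnf did not (-0.33, adjusted p = 0.0699), while Jak2 and Il2 passed as lower and Zeb2, Batf and Notch1 as higher, against 5.62% of tested genes as higher. Between the isotype groups, Gata3 (0.60), Nkg7 (0.51) and Id2 (0.46) had the highest passing values in GF mice, and after scaling Id2 passed (0.30, adjusted p = 0.039) while Gata3 (0.43, adjusted p = 0.163) and Nkg7 (0.34, adjusted p = 0.455) did not, against 6.42% of tested genes passing as higher in TPM and 0.517% after scaling. Between the aCD3 groups, Xcl1 (3.09), Il2 (2.27) and Il18bp (1.70) were the highest and Ccl3 (-2.61), Havcr2 (-2.55) and Ccl4 (-1.83) the lowest passing values in GF against SPF mice. There 48.9% of tested genes passed as higher and 4.46% as lower. The effector list held 5 higher and 4 lower genes, and 3 and 6 after scaling, against 16.1% and 16.7% of tested genes. GF aCD3 libraries spread widely, from 0.545 to 19.3 TPM for Il2, 10.9 to 369.7 for Ccl3 and 0.462 to 30.8 for Havcr2. In the interaction 7 list genes passed as higher, against 2.44% of tested genes: Xcl1 (2.68), Il18bp (1.499), Rora (1.39), Bcl6, Runx1, Tox and Gata3. Havcr2 (-2.43) and Myd88 (-0.52) passed as lower, against 1.04% of tested genes, so Hlx shared its direction there with Havcr2. After scaling the 7 and Il2 passed as higher, against 5.3% of tested genes, and the effector list held 2 higher and 6 lower genes in place of 1 and 1, where 6.03% of tested genes passed as lower.

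Markers of other cells moved with aCD3, some also differed between the isotype groups, and they stand beside all results above. Natural killer cells and group 1 innate lymphoid cells also use T-bet, interferon gamma and the IL-12 and IL-18 receptors. Their 8 markers summed to 45.7 to 66.5 TPM in SPF isotype and 7.11 to 16.0 after aCD3, and to 17.4 to 72.2 in GF isotype and 11.99 to 35.0 after aCD3. Of these, Ncr1 had a median of 3.50 TPM in SPF isotype and 0.115 in SPF aCD3, while Klra8 and Klra4 had a median of 0 in both. The 8 B and plasma cell markers summed to 96.6 to 275 TPM in SPF isotype and 3.02 to 10.6 in SPF aCD3, and the 2 CD8 genes to 5.68 to 13.5 and 9.75 to 23.8. The 11 myeloid markers summed to 54.5 to 86.0 TPM in SPF isotype and 116.8 to 150.4 in SPF aCD3, with Cd14 and C1qa at a median of 0 in both. Cd68 had a mean of 5.99 and 76.5 TPM in these groups, while H2-Aa had 3.08 and 0.393 and H2-Ab1 2.14 and 0.245, and 4 and 2 of the 11 had a median of at least 1 TPM. The 6 stromal markers summed to 3.37 to 32.9 and 0.401 to 2.32 TPM. Median sums in SPF isotype and GF isotype were 180.2 and 34.8 TPM for B and plasma cell markers and 20.1 and 1.31 for stromal markers. They were 7.41 and 1.64 TPM for erythroid markers and 8.11 and 2.90 for the CD8 genes. Myeloid markers had 67.2 and 82.0 TPM, epithelial markers 10.5 and 18.3, and natural killer and innate lymphoid markers 55.2 and 48.9. The 6 pancreatic acinar markers reached 350.3 TPM in GF aCD3, in replicate M3, against 51.2 in GF isotype. The sort on TCRb and CD4 is meant to leave cells other than CD4+ T cells out, and their part in the members' changes was not tested.

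Genes whose level followed the members most closely across the 28 libraries were sought among 7484 tested genes with a mean of at least 5 TPM. For Tbx21 these were F2r, Cr1l, Mob4, Iars2 and Mapk9 (Pearson r from 0.940 to 0.948), and for Cxcr3 Cbx7, Sun2, Hcst, Plcg1 and Ppm1k (0.981 to 0.986). For Ifng the best matches were weaker: Pdia3, Tubg1, Aprt, Gadd45gip1 and Il2ra (0.754 to 0.774). The closest genes were Plekha5 for Stat4 (0.974), Frmd6 for Il12rb2 (0.953), Apol7e for Il18r1 (0.936), Ttc39b for Il18rap (0.941) and Gsn for Eomes (0.589). For Hlx the closest was Pcdhgc3 (0.820), and over the 22 libraries outside GF aCD3 Lag3, Sema7a, Ccl3, Zfp52 and Gzmb (0.909 to 0.923). The libraries share group, sex and histone share, so these values describe the group pattern. Across the 22 libraries Lag3 thus accompanied Hlx, whereas in GF aCD3 the replicates M1, M2 and M5, with 452 to 527 TPM of Lag3, had 0, 0.356 and 0.499 TPM of Hlx.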

How the data were processed

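The authors deposited TPM per gene, computed per the file headers with HOMER's analyzeRepeats.pl on mm10 RefSeq genes. The aligner's settings and the use of strand are not given in the sources used here. In 99.24% of rows the length is the genomic span. TPM times length was a whole multiple of a step (tolerance 0.1) in 100% of low values checked per library, and 68.9% to 77.6% of these were even, so 2 steps were taken as 1 read equivalent. Whether 1 or 2 steps make a read was not settled. Levels of 3 read equivalents cover counting error only, since reads are not independent molecules. The table holds 26 columns matching no sample, which were not used.

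Log2(TPM + 1) of 12182 genes at or above 1 TPM in at least 6 libraries was fitted with limma 3.58.1 (R 4.3.3): 1 mean per group, a sex term, moderation with a trend, two-sided, Benjamini-Hochberg per comparison, threshold 0.05. Fold changes on this scale understate low genes. The fit was tested on simulated data. Permutation tests, motif searches and summaries used Python 3.11.15, NumPy 2.4.6 and pandas 2.3.3. Alternatives were other pseudocounts, filters and scalings, voom, no sex term, a replicate block, sample number sets and leaving out each library.

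Named were all members, per comparison up to 3 highest and 3 lowest passing genes of the lists, and the 5 genes most alike in level. Some genes that this rule names are not reported here. Jak2, Runx3, Irf4 and other genes named beside a count, and Lag3, were chosen after their values were seen. Members and lists were chosen with earlier results of these data known.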

Additional observations from a re-analysis of the deposited data

Results flagged for a closer look

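The effect of aCD3 on Hlx differed between GF and SPF mice by a direct test of the difference. The interaction value was -2.15 ± 0.35 on the log2 scale (limma, adjusted p = 0.0026). All 6 SPF aCD3 libraries lay above all 6 SPF isotype libraries, whereas GF aCD3 libraries ran from 0 to 1.68 TPM and GF isotype libraries from 0 to 2.09 TPM. Leaving out each library in turn gave values from -2.45 to -2.01, all past the threshold. The counts behind Hlx are low, with 186 read equivalents in all over SPF aCD3, 27.5 over SPF isotype, 35 over GF isotype and 14 over GF aCD3. In 40 sets of a member and a group, 0 had a library far from the others by Dixon's criterion, where 2 would be expected by chance.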

How the results depend on the processing

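Over 1310 alternative values of 50 member and comparison pairs, 1215 kept direction and side of the threshold, 41 lost a call, 34 gained one and 20 changed sign, 0 of them of a called result. Most of these alternatives left out 1 library and so changed the data little. After scaling alone, 37 of the 50 kept both, 7 lost a call, 1 gained one and 5 changed sign. With voom these counts were 41, 5, 1 and 3. In SPF mice 10 members passed (Eomes included), 9 to 10 without 1 library, 7 after scaling and 6 with voom. For GF aCD3 the count of 1 became 0 with a pseudocount of 0.1, no filter, TPM without Rn45s and histone genes, the replicate block, or either set of sample numbers, 2 with a filter of 5 TPM, 3 with the sets as a covariate, 4 without the sex term and 0 to 4 without 1 library. Between isotype groups the count of 1 became 0 after scaling and 0 to 1 without 1 library, and between aCD3 groups 7 became 4 after scaling. The interaction count of 1 became 0 with a filter of 5 TPM, which removes Hlx, 2 after scaling, with voom or with the replicate block, and 1 to 6 without 1 library. Over all genes GF aCD3 calls went from 862 to 0 with a pseudocount of 0.1, no filter or the replicate block, to 1 within either set of numbers, 545 without Rn45s and histone genes, 2472 without the sex term and 2215 with the covariate, and from 0 to 4213 without 1 library. Between isotype groups 874 became 204 after scaling, 379 with voom and 2362 without Rn45s and histone genes, and 325 to 990 without 1 library. Between aCD3 groups 6496 became 3988 after scaling. The interaction count of 424 became 774 and 273 with pseudocounts of 0.1 and 5, 233 without a filter, 1381 after scaling, 1656 with voom, 162 with the replicate block and 32 to 3187 without 1 library. The causes were not tested.

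Values that changed sign were small. Ifng in GF mice became 0.11 after scaling, 0.067 without Rn45s and histone genes, 0.084 with voom, 0.0030 with the replicate block and 0.0037 in sample numbers 25 to 33, with a range of -0.11 to 0.014 without 1 library. In the same comparison Il12rb2 became 0.040 in numbers 25 to 33 and Eomes -0.040 in numbers 48 to 54. Between isotype groups Ifng became -0.12 after scaling and -0.050 with voom (-0.022 to 0.097 without 1 library), Cxcr3 -0.018 after scaling, and Stat4 -0.032 after scaling and -0.0076 with the replicate block. The Tbx21 interaction became -0.15 after scaling, -0.057 without Rn45s and histone genes and -0.14 with voom (-0.026 to 0.20 without 1 library). The replicate block paired libraries by sex letter and number. Same-named libraries correlated at -0.031 to 0.10 in SPF and -0.21 to 0.20 in GF mice. Differently named libraries were not compared in this way, so whether the names pair the samples was not settled. With the block, Tbx21 between isotype groups lost its call (adjusted p = 0.0561), and Il18r1 passed there (-0.64, adjusted p = 0.0216) and in the interaction (0.92, adjusted p = 0.0463). Depth limits Hlx outside SPF aCD3 and Eomes in all 4 groups, where levels of 3 read equivalents or fewer occur.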

Other observations

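Within GF isotype, Il12rb2 and Stat4 went with the sample numbers in the column names. The 6 libraries numbered 25 to 30 (3 female and 3 male) had 37.6 to 68.2 TPM of Il12rb2, and the 4 libraries numbered 48 to 51 (2 of each sex) had 83.5 to 150.9 TPM. For Stat4 the values were 41.4 to 59.7 and 63.2 to 77.7 TPM. No value of either gene overlapped between the sets, as for 5.51% of tested genes in this direction. The other 8 members overlapped, Il12rb1 at 82.2 to 97.6 and 96.5 to 139.7 TPM. What the numbers stand for is not given in the sources used here.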
